A study of Mus musculus with 6 samples.

Results

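The Edn1 locus was taken as the 25 of 62236 CTBP2 sites whose centre lay on chromosome 13 between 42.35 and 42.68 Mb, by position alone. The locus itself was selected on the LPS response of these same libraries, so the difference between LPS and vehicle at its sites is given as a description, with no test of its own. CTBP2 binding was read by chromatin immunoprecipitation with sequencing. The cells were bone marrow-derived macrophages, grown in culture from the marrow of male wildtype C57BL6/N mice aged 6 to 12 weeks. In the LPS group (3 libraries) cells had 100 ng/ml lipopolysaccharide, a component of the bacterial outer membrane, for 3 h, and in the vehicle group (3 libraries) they had PBS. Whether the numbered libraries are separate mice or cultures is not told by the labels, nor whether mice were pooled. The p-values set the difference between the groups against the spread among these libraries only, and that spread may be technical. No input library was used here.

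Edn1 encodes the precursor of endothelin-1, a secreted peptide that constricts blood vessels. The precursor is cut to big endothelin and then, by endothelin converting enzymes, to the active peptide, which acts on the G protein-coupled receptors EDNRA and EDNRB. Endothelial cells are its best known source, and human macrophages are known to release it after LPS. CTBP2 is a transcriptional co-repressor that does not read a DNA sequence itself but is brought to chromatin by DNA-binding proteins such as ZEB1 and ZEB2.

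The deposited table names Edn1 for all 25 sites, but its site positions and gene positions do not share coordinates. Of 77 RefSeq gene starts within 3 Mb of Edn1, 29 had a site centre within 500 bp once starts were moved by 153.5 kb, against 5 with no move and at most 14 at any move more than 2 kb away. Starts upstream and downstream of Edn1, taken apart, gave the same 153.5 kb. All distances below are from the Edn1 start placed with this offset. It is good to about 500 bp, and no converted coordinate is given. Site positions are printed as in the table, and their build was not stated there. Placed in this way, the end of Hivep1, which encodes a zinc finger protein that binds enhancer sequences, lay 116 kb before the Edn1 start, and the first annotated base of Phactr1, an actin regulator gene, 379 kb past it. Edn1 was the only protein-coding RefSeq gene inside the window.

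No deposited site covered the Edn1 start. The nearest site began 1.22 kb and ended 2.22 kb past it, within the 6.515 kb gene, and the nearest site on the other side was centred 5.6 kb before it. The promoter sequence is shown because it is the stretch around which the sites lie and which none of them holds. It comes from RefSeq on GRCm38.p6 (chr13:42301226-42301525, plus strand), and runs from 250 bases before to 50 bases past the annotated start. Capitals mark, in order, a GATA match (AGATAA on the other strand), a hypoxia element match (ACGTG on the other strand) and TGACTAA, a variant of the AP-1 element.
Edn1 promoter: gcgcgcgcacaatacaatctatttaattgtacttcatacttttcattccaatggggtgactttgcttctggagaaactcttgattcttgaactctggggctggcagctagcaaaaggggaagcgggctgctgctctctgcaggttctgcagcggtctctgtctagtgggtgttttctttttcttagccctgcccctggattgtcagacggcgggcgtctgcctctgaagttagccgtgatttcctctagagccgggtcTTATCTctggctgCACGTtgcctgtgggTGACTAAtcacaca

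The matches began 8, 21 and 36 bases past the annotated start and did not overlap. GATA, hypoxia-inducible and AP-1 factors are known regulators of the human gene. Both strands were searched, and among 27025 mouse promoters of this length AGATAA was held by 11.4%, ACGTG by 19.7% and TGACTAA by 2.33%. The letters TGACTAA were added to the search after the sequence was read. The window held none of TGANTCA (AP-1, 7.93% of promoters), an NF-kB motif (GGG and TTCC separated by 3 bases of any kind, 5.52%), TATAAA (14.2%) and CACCTG (an E-box of the ZEB type, 20.0%). These are matches of letters in this window and do not show binding. Sequence more than 250 bases before or 50 bases past the annotated start was not searched, so an absence here does not extend beyond it.

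Signal is given as the authors' normalised value divided by the median of its library and multiplied by the mean of the 6 medians (48.8), so that a typical site has a value near 48.8 in every library. Replicates were closer to each other than to the other group, with Pearson correlations across sites of 0.890 to 0.932 within groups and 0.692 to 0.763 between them. In each deposited column the low values were evenly spaced, and all values below 300 spacings (steps) were whole multiples of 1 step within 0.1 step. If 1 step is 1 read, the libraries held 3243258 to 4553181 reads in sites, and the 25 Edn1 sites together 1733, 2187 and 2266 reads in LPS libraries and 1062, 1382 and 859 reads in vehicle libraries.

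After LPS, CTBP2 signal over the Edn1 locus was higher. Summed over the 25 sites it was 1967, 1940 and 2126 in LPS libraries, against 1264, 1226 and 1075 in vehicle libraries. The groups did not overlap, with means of 2011 ± 101 in LPS and 1188 ± 100.1 in vehicle (SD, n = 3 each), a ratio of 1.69. The median site had 55.6, 61.2 and 61.0 in LPS libraries and 29.7, 27.5 and 27.5 in vehicle libraries, so that the typical site of the locus was near the genome-wide level with LPS and below it with vehicle. Site means ran from 24.9 to 202 in LPS and from 10.5 to 171 in vehicle.

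To call single sites, limma was fitted over the whole table, and it called 10033 sites higher with LPS and 8408 lower at an adjusted p under 0.05 (Benjamini-Hochberg over 62236 sites), which is 16.1% and 13.5% of sites. Of called sites 54.4% were higher, against 97.5% on the deposited values without scaling, where 1178 were higher and 30 lower. In the Edn1 locus 17 of 25 sites were called higher beside that 16.1%, and 0 lower beside 13.5%, and 0 were lower at an unadjusted p under 0.05 as well. On the deposited values 6 of the 25 were called higher, and these were those 101.7, 67.1, 52.6 and 39.0 kb before and 1.7 and 62.0 kb past the start. The differences themselves were much the same there, with a median log2 difference of 0.82 over the 25 sites, against 0.76 after scaling. Since the locus was chosen from this contrast, nothing is read from these counts.

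Of the 17 called sites, 13 were called without each single library in turn. The median log2 difference of the 25 sites was 0.76, against -0.02 over all sites, and 23 of the 25 were above 0. At 19 of the 25 the LPS values were all above the vehicle values, beside 21.6% of all sites. A log2 difference of at least 1, that is 2-fold, was found at 10 of 25 sites (40%) and at 6.28% of all sites. By the FDR in the authors' deposited table, 9 of the 25 were under 0.05 and higher, all of them among the 17, beside 4.01% of all sites. The log2 fold in the authors' deposited table was 1.31 at the site in the gene and 0.04 at the strongest site. Their log2 group means there were 6.98 in LPS and 5.16 in vehicle at the first, and 7.64 and 7.39 at the second. The authors' folds were smaller than the gaps between these means, so they are not the same measure as the differences given here.

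**Figure D1:**
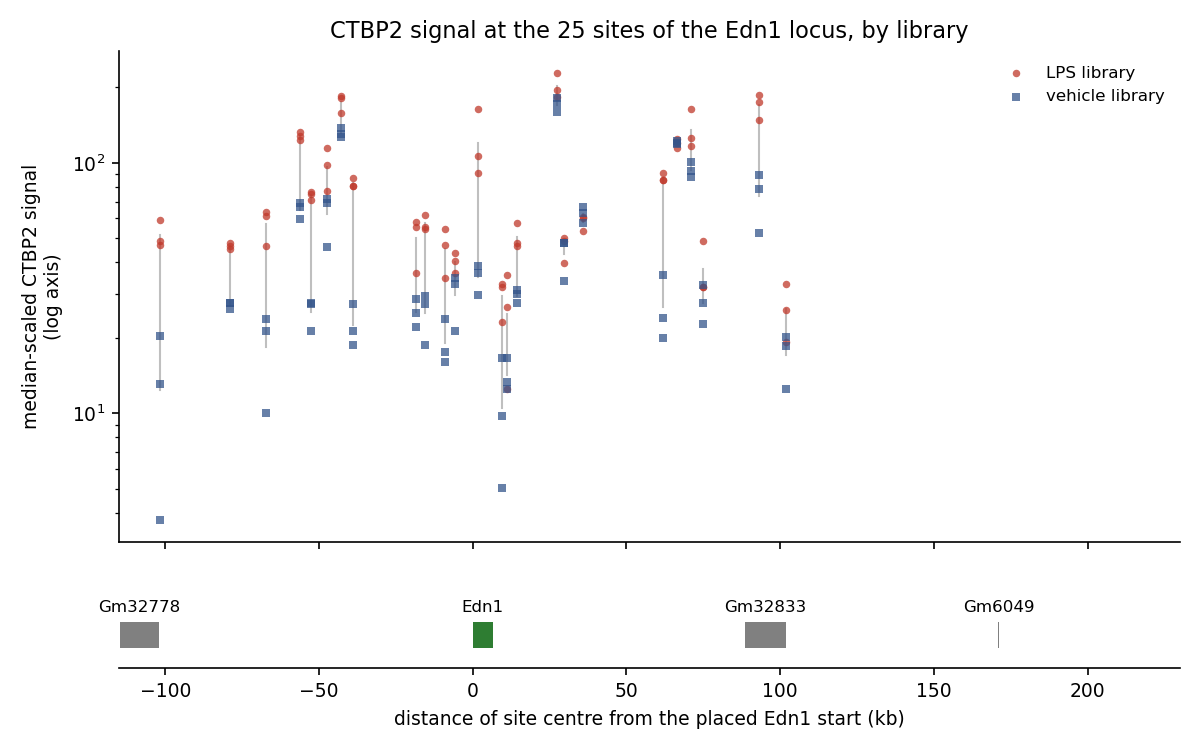
CTBP2 signal (median-scaled value, log axis) at the 25 sites of the Edn1 locus against distance of the site centre from the placed Edn1 start in kb, with 1 point per LPS library (circles) and vehicle library (squares) and a grey line joining the 2 group means. Bars below mark RefSeq genes placed with the same offset, and all sites lay between 101.7 kb before and 101.9 kb past the start.

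The site nearest to the Edn1 start, at chromosome 13, 42456197 to 42457197, was centred 1.7 kb past it, inside the gene. It had 90.8, 106 and 163 in LPS libraries and 29.7, 36.4 and 38.8 in vehicle libraries. Every LPS library was above every vehicle library, and LPS replicate 3 stood highest. The means were 120.2 ± 38.1 in LPS and 34.96 ± 4.68 in vehicle (SD, n = 3 each), with a log2 difference of 1.72 (SE 0.19). Among all sites this one was at the 90.0th percentile by LPS mean and at the 28.4th by vehicle mean.

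Of the 12 sites before the start, 11 were called higher, beside 16.1% of all sites. At all 12 every LPS library was above every vehicle library, beside 21.6% of all sites. The farthest, at chromosome 13, 42352759 to 42353759 and 101.7 kb before the start, had 59.0, 48.8 and 46.9 in LPS libraries and 13.1, 20.4 and 3.76 in vehicle libraries. It had the largest log2 difference of the locus, 2.21 (SE 0.40), and was at the 0.222 percentile of all sites in vehicle, where these values stand for 11, 23 and 3 steps. Without vehicle replicate 3 the log2 difference was 1.59. The placed end of Gm32778, a long non-coding RNA gene, lay 102 kb before the Edn1 start, close to this site. Whether the 2 overlap cannot be told, as the offset is good to about 500 bp. This site was also the first inside the window. The nearest one outside it, 43.6 kb away and 145.4 kb before the Edn1 start, had 59.0, 63.0 and 55.4 in LPS libraries and 44.0, 52.3 and 62.5 in vehicle libraries, and there the groups overlapped.

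The site 39.0 kb before the start, at chromosome 13, 42415449 to 42416449, had 80.6, 80.7 and 87.2 in LPS libraries against 27.4, 21.3 and 18.8 in vehicle libraries. Its log2 difference was 1.85 (SE 0.19), with narrow spread in both groups. Only 3.8 kb further from the gene, the site 42.8 kb before the start was among the strongest of the locus in both groups, with 158, 185 and 182 in LPS libraries and 138, 130.4 and 126 in vehicle libraries. The groups did not overlap there either, but the log2 difference was 0.40 (SE 0.14), and the call was lost without LPS replicate 2 (0.36), LPS replicate 3 (0.37) or vehicle replicate 2 (0.40).

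The other sites before the start differed in how far LPS stood above vehicle. Those 52.6 and 67.1 kb before it averaged 74.2 ± 2.57 and 57.2 ± 9.31 in LPS, against 25.4 ± 3.56 and 18.4 ± 7.34 in vehicle (SD, n = 3 each), with log2 differences of 1.52 and 1.66. The sites 9.1 and 15.5 kb before it had log2 differences of 1.20 and 1.18, and those 18.6, 47.5, 56.1 and 79.1 kb before it 0.94, 0.63, 0.97 and 0.76. The one 47.5 kb before did not pass without LPS replicate 1 (0.50) or vehicle replicate 3 (0.43). The site closest to the start on this side, 5.6 kb before it, had 36.3, 43.5 and 40.3 in LPS libraries and 34.5, 32.8 and 21.3 in vehicle libraries, a log2 difference of 0.45 (SE 0.23) that did not pass.

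Past the start the sites were more mixed. A difference about as large as that in the gene was seen at chromosome 13, 42516429 to 42517429, 62.0 kb past the start, with 85.1, 85.2 and 91.0 in LPS libraries and 35.7, 23.9 and 20.02 in vehicle libraries (log2 difference 1.72, SE 0.20). The next site, 66.4 kb past the start, was level, with 115, 124 and 120.1 in LPS libraries and 119, 122 and 120.1 in vehicle libraries. Its log2 difference was -0.01 (SE 0.14) and was just above 0 on the deposited values and without LPS replicate 1 or vehicle replicate 2. At the site after it, 70.9 kb past the start, the values were 117, 125 and 163 in LPS libraries and 92.8, 101 and 87.6 in vehicle libraries, with a log2 difference of 0.51 that did not pass without LPS replicate 3 (0.36).

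A group of sites 27.3, 29.8 and 35.7 kb past the start were not called. The first of these, at chromosome 13, 42481751 to 42482751, was the strongest site of the locus, with 228, 183 and 195 in LPS libraries and 181, 171 and 160.1 in vehicle libraries. Its log2 difference was 0.24 (SE 0.13), and it was at the 98.3rd percentile of all sites by LPS mean and the 97.3rd by vehicle mean. The one 35.7 kb past the start had 53.3, 60.3 and 61.0 in LPS libraries and 66.6, 63.0 and 57.5 in vehicle libraries, with overlapping groups and the lowest log2 difference of the locus, -0.10 (SE 0.17). The strongest sites by vehicle level, 27.3 kb past, 42.8 kb before and 66.4 kb past the start, were thus among those with the smallest differences.

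The sites 9.6 and 11.2 kb past the start were low in both groups. The site 9.6 kb past the start had 32.9, 23.1 and 31.9 in LPS libraries and 16.7, 9.76 and 5.00 in vehicle libraries, a log2 difference of 1.52 that did not pass without LPS replicate 1 (1.43). The site 11.2 kb past the start had 12.5, 26.6 and 35.7 in LPS libraries and 16.7, 13.3 and 12.5 in vehicle libraries, and the groups overlapped. The site 14.4 kb past the start had a log2 difference of 0.75, and that 74.9 kb past it, which did not pass, 0.42.

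Gm32833, a long non-coding RNA gene of unknown role here, lay 88.4 to 102 kb past the Edn1 start and runs towards it. The site 93.2 kb past the start, inside Gm32833, had 175, 187 and 148 in LPS libraries and 78.5, 89.6 and 52.5 in vehicle libraries, a log2 difference of 1.23 (SE 0.17). The last site of the window, 101.9 kb past the start, lay at the placed Gm32833 start, to within the 500 bp or so of the offset. It had 19.3, 25.7 and 32.8 in LPS libraries and 20.2, 18.6 and 12.5 in vehicle libraries, with overlapping groups and a difference that did not pass. No site followed for 171 kb, and the next, outside the window and 272.9 kb past the start, had 89.6, 90.5 and 76.0 in LPS libraries and 36.9, 32.8 and 27.5 in vehicle libraries.

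**Figure D2:**
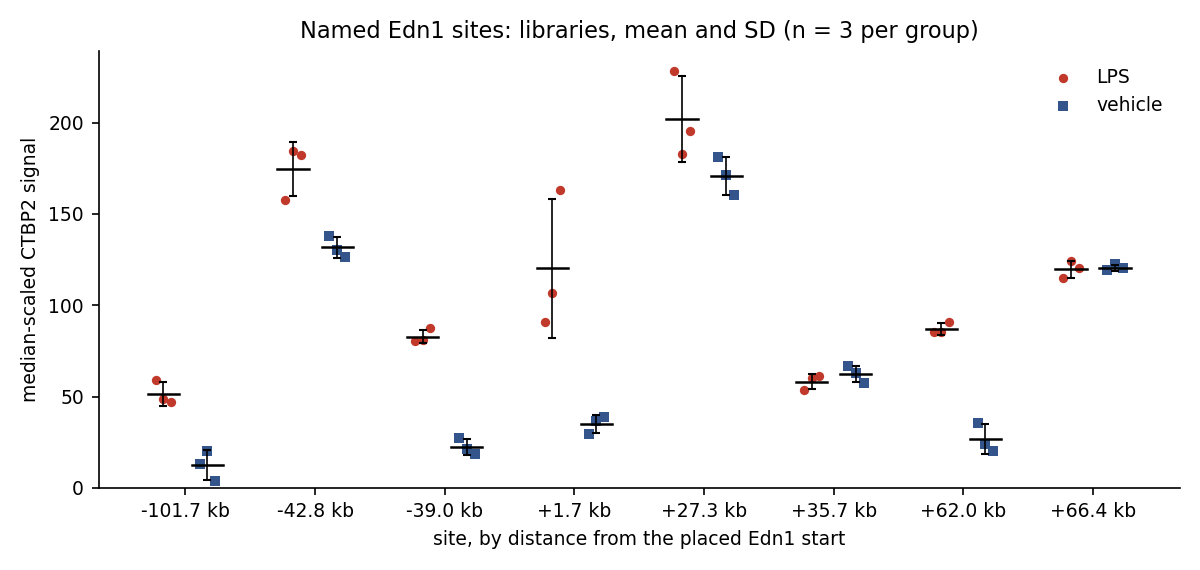
Median-scaled CTBP2 signal at the 8 named Edn1 sites, in order of distance from the placed start, with 1 point per library, LPS left of vehicle, a bar at the mean and whiskers of 1 SD (n = 3 per group). The sites at 101.7 and 39.0 kb before and 1.7 and 62.0 kb past the start separate the groups widely, while the sites 35.7 and 66.4 kb past it do not.

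**Figure D3:**
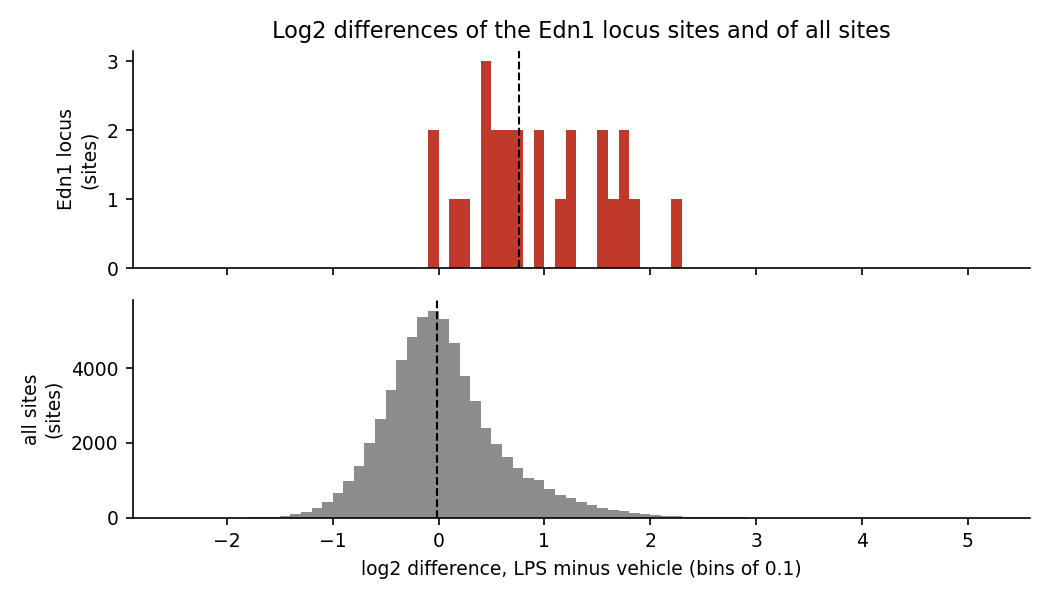
Number of sites by log2 difference (LPS minus vehicle, bins of 0.1) for the 25 Edn1 sites (upper panel) and all 62236 sites (lower panel), with dashed lines at the medians of 0.76 and -0.02. The Edn1 sites ran from -0.10 to 2.21.

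By vehicle level, the 15 sites with a vehicle mean under 30 had a median log2 difference of 1.18 and 11 were called higher, and the 8 with 60 or more had 0.46 with 5 called. Of all sites of the table with a vehicle mean under 30, 40.5% were called higher, and of those with 60 or more 9.08%. The vehicle values enter both the level and the difference, so a larger difference at low sites is partly built in. The 12 sites before the Edn1 start had a median log2 difference of 1.08, and the 13 past it 0.57. Of those past it 6 were called higher, beside 16.1% of all sites. The difference between the sides was not tested.

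The stretches of the same length on either side of the window were described after the data were seen. Before the window, in a stretch that covered Hivep1, 17 sites had a median log2 difference of 0.00, with 3 called higher and 1 lower, beside 16.1% and 13.5% of all sites. Its site 250.1 kb before the Edn1 start, at the start of Hivep1, averaged 181 ± 46.4 in LPS and 118 ± 25.1 in vehicle (SD, n = 3 each) with overlapping groups, and was among the 3. Past the window, 5 sites had a median log2 difference of 1.25. The 4 of these between 272.9 and 298.8 kb past the Edn1 start, short of Phactr1, were called higher, with log2 differences of 1.38, 1.49, 1.25 and 0.85, and the fifth, inside Phactr1, lower (-0.50). The higher sites therefore did not end at the window's edge on the Phactr1 side.

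**Figure D4:**
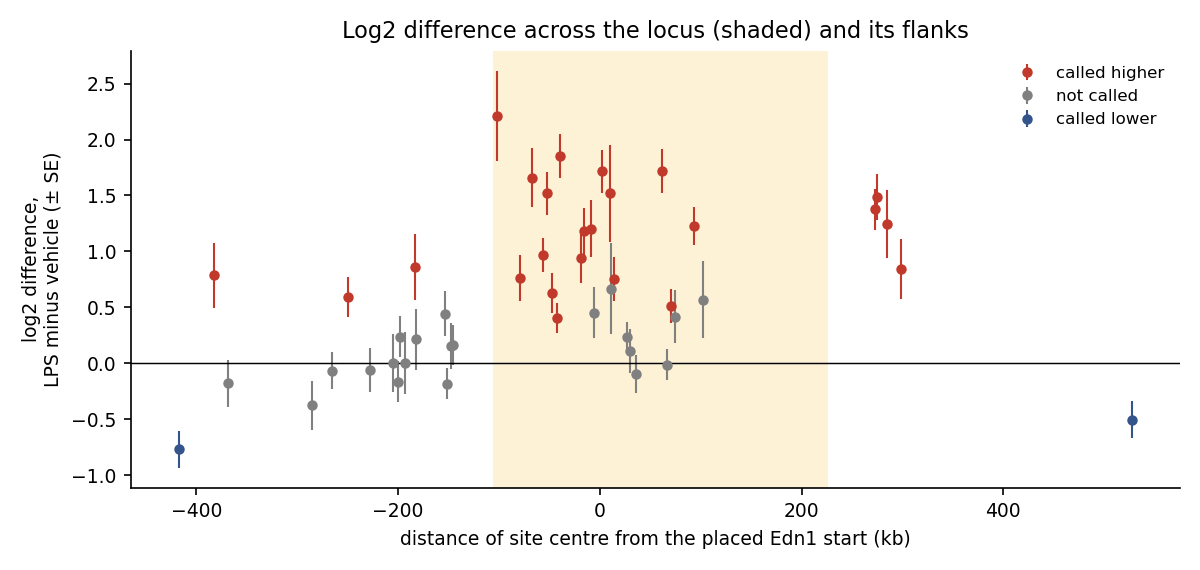
Log2 difference between LPS and vehicle (± SE) at each site of the Edn1 locus (shaded) and of the 330 kb on either side, against distance of the site centre from the placed Edn1 start in kb. Sites past the threshold higher with LPS are red, those lower are blue and the rest grey, and the shaded stretch holds no blue site.

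The sites elsewhere most like the strongest Edn1 site (27.3 kb past the start) were found by the root mean square difference of the 6 log2 values. The 5 closest, 1 per gene, differed from it by 0.0487 to 0.0947, and lay nearest to the placed starts of Ctsc, Stk40, Slc6a4, E230013L22Rik and Fndc3b. In all, 620 sites outside the locus were within 0.25. The site in the Edn1 gene was compared in the same way after its values were seen, and had 10 sites within 0.25. The closest lay nearest to Gm4606, Cd38, Cpeb4, Il1a and Asah2, at root mean square differences of 0.19 to 0.24. The site near Il1a, which encodes the cytokine interleukin-1 alpha, was 5.99 kb from its start and had 97.6, 124 and 123 in LPS libraries and 32.1, 35.5 and 31.3 in vehicle libraries. That near Cd38, a gene for an NAD-consuming surface enzyme, was 13.1 kb away and had 107, 106 and 145 in LPS libraries and 32.1, 31.9 and 30.02 in vehicle libraries. With 6 libraries in 2 groups, likeness mostly reflects the 2 group levels.

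Other genes of the endothelin system were read from the same fit, with sites within 50 kb of a start placed by an offset measured near each gene. All 17 were placed and 15 had a site, 107 sites in all, of which 10 (9.35%) were higher and 16 (15.0%) lower, beside 16.1% and 13.5% of all sites. Their median log2 difference was -0.04. On the deposited values limma called 1 of the 107 higher, the Fos site described below, and 0 lower. The log2 differences were close to those after scaling, for example 1.12 without and 1.06 with scaling at the most changed Ece1 site, and -0.78 and -0.84 at that of Pparg. A site within 50 kb may be nearer to another gene.

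Of the other ligand genes, Edn2 had 2 sites. The one 44.4 kb before its start had 19.3, 32.8 and 24.4 in LPS libraries and 51.2, 31.9 and 47.5 in vehicle libraries, a log2 difference of -0.75 (limma adjusted p = 0.0169) with overlapping groups. It did not pass without LPS replicate 1 (-0.58), vehicle replicate 1 (-0.62) or vehicle replicate 3 (-0.68). Edn3 had 1 site, with a log2 difference of 0.52 (limma adjusted p = 0.164). Of the receptor genes, Ednra had no site within 50 kb, and Ednrb, whose product also clears the peptide, had 4. The site 2.83 kb past the Ednrb start had 110.1, 119 and 111 in LPS libraries and 70.2, 78.1 and 83.8 in vehicle libraries, and rose by 0.55 (SE 0.15, limma adjusted p = 0.00603).

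Among the enzyme genes, Ece1, which encodes the main converting enzyme, had 10 sites, 2 higher and 1 lower, beside 16.1% and 13.5% of all sites. Its most changed site, 17.7 kb past the start, had 285, 216 and 235 in LPS libraries and 124, 123 and 104 in vehicle libraries, and every LPS library lay above every vehicle library. The log2 difference was 1.06 (SE 0.14, limma adjusted p = 4.45e-07). Ecel1, a related protease gene, had 1 lower site of 6 (-1.21, limma adjusted p = 2.83e-05), 45.2 kb before its start. Ece2, Mmel1 (a neprilysin relative) and Cma1 (mast cell chymase, which can also make the peptide) had 7, 8 and 3 sites and none past the threshold, with limma adjusted p of 0.376, 0.0516 and 0.0529 at the most changed, whose log2 differences were -0.24, 0.64 and -0.59. The Mmel1 and Cma1 sites lay close to the threshold and passed it under some alternatives, such as the replicate block. Mme, which encodes the endothelin-degrading protease neprilysin, had no site within 50 kb.

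Near genes for known regulators of Edn1 transcription, CTBP2 sites were called in both directions. The counts below stand beside 16.1% of all sites called higher and 13.5% lower. A Hif1a site 10.9 kb before the start of that hypoxia factor gene had 84.0, 75.4 and 76.0 in LPS libraries and 30.9, 29.3 and 26.3 in vehicle libraries, a log2 difference of 1.41 (SE 0.18, limma adjusted p = 3.02e-07). Of 16 sites within 50 kb of Fos, an AP-1 gene, 3 were higher and 2 lower. The most changed, 39.9 kb past the start and named Jdp2 in the table, had 163, 180.1 and 136 in LPS libraries and 42.8, 57.7 and 51.3 in vehicle libraries (log2 difference 1.64, limma adjusted p = 1.47e-09). Near Jun, its AP-1 partner gene, 4 of 7 sites were lower and 0 higher, with -0.90 (limma adjusted p = 0.000317) at the most changed. Near Pparg, a lipid-sensing nuclear receptor gene, 5 of 15 were lower and 0 higher, and the most changed site had 79.4, 91.4 and 85.4 in LPS libraries and 152, 143 and 168 in vehicle libraries (-0.84, limma adjusted p = 2.87e-05). Smad3 had 2 higher and 2 lower of 13, and Gata2 and Foxo1 had 5 and 3 sites with none past the threshold (limma adjusted p = 0.319 and 0.122 at the most changed). On the deposited values the most changed Fos site was the only pathway site called higher, and none was called lower.

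**Figure D5:**
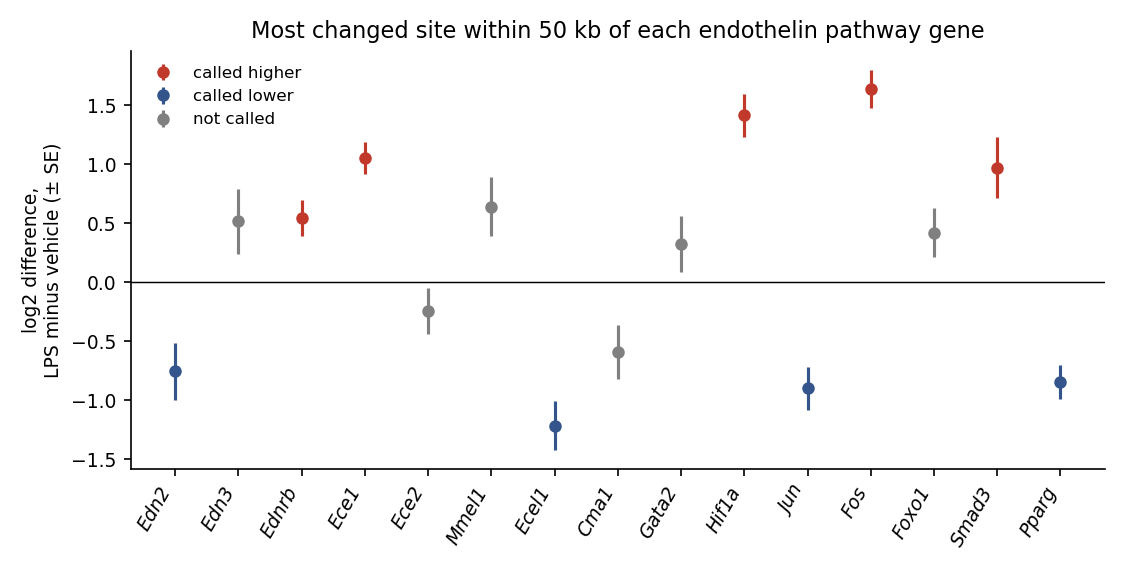
Log2 difference between LPS and vehicle (± SE) at the most changed site within 50 kb of the placed start of each endothelin pathway gene that had a site. Those of Ednrb, Ece1, Hif1a, Fos and Smad3 were called higher, those of Edn2, Ecel1, Jun and Pparg lower, and the other 6 did not pass.

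Binding sites do not measure expression, so the labelled cell type could not be checked from marker levels. Of the macrophage marker genes, 6 of 7 were placed and each had sites within 50 kb, with a summed site mean of 539 to 1326 in LPS and 563 to 1537 in vehicle (14 of 78 sites, 17.9%, higher and 10, 12.8%, lower, beside 16.1% and 13.5% of all sites). Of the endothelial marker genes 4 of 6 were placed, with 0 to 746 in LPS and 0 to 870.2 in vehicle, and Tie1 had no site within 50 kb. Of the 20 sites near the other 3, 1 was higher and 3 were lower. Stromal (1 of 3 placed), neutrophil (3 of 4) and lymphocyte (2 of 3) marker genes had 2, 23 and 13 sites, of which 1 each was higher and 0, 3 and 3 lower, beside the same shares of all sites. The part of other cell types in the Edn1 signal was not tested.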

How the data were processed

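One deposited table was used. Its 6 library columns hold a normalised signal per site, as deposited by the authors, whose scaling was not given in the sources used here. Also deposited are the authors' log2 concentrations and log2 folds, and their p-values and FDR. The submitters' processing notes list MACS3 3.0.0a5 and DiffBind 3.16 with R 4.4.1, and also bedtools, BWA 0.7.17, deepTools 3.5.1, FastQC, SAMtools 1.9 and Picard 3.2.0. They name mm39, GRCm39 and mm10, with no role. Pooling of libraries before peak calling was not given in the sources used here.

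Each column was divided by its median and multiplied by the mean of the 6 medians. limma 3.58.1 in R 4.3.3 (trend, robust, no covariates, no filter) was fitted to log2(value + 1) over all 62236 sites, with Benjamini-Hochberg adjustment, and was tested on simulated data. Differences are on this scale, which understates changes at low sites.

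Offsets were the shift (steps of 250 bp, up to 1 Mb) that brought most RefSeq GRCm38.p6 gene starts within 3 Mb to within 500 bp of a site centre, accepted at 1.3 times the hits of any shift over 2 kb away. Genes were matched by symbol. Named sites were the nearest to the Edn1 start, the 4 largest and 2 smallest differences, the 3 highest vehicle means and those at the window's edges, and for pathway genes the most changed site. The others are given by their values too. The members, lists and rules were chosen with earlier results of these data known. Alternatives covered scaling, pseudocount, a filter, the threshold, a replicate block, single libraries left out and distances.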

Additional observations from a re-analysis of the deposited data

How the results depend on the processing

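Deviations of same-numbered LPS and vehicle libraries from their group means correlated at 0.111, 0.0384 and 0.214 across sites. Those of differently numbered libraries correlated at -0.205 to 0.148. The ranges overlapped, so they do not settle whether the replicate numbers pair the libraries. With the number as a block, 17 Edn1 sites were higher, and 11691 sites of the table were higher and 10397 lower. On the deposited values without scaling, 1178 sites were higher and 30 lower, 6 Edn1 sites were higher, and 1 pathway site was higher and 0 lower. The differences stayed close to those with scaling: the Edn1 median was 0.82 and the most changed Ece1, Jun and Pparg sites had 1.12, -0.84 and -0.78. The cause of the lost calls was not tested. There the site 66.4 kb past the Edn1 start had a log2 difference of 0.0518 and so changed sign. With a pseudocount of 8 the Edn1 median log2 difference was 0.64, as a larger constant shrinks differences at low sites. At an adjusted p under 0.01, 4699 sites were lower and 9 pathway sites lower. Sites within 50 kb of the Edn1 start gave 9 higher of 14, beside 16.1% of all sites. Pathway sites within 10 kb of a start gave 2 higher and 2 lower. The number of pathway sites within 10 kb is not given here, so no share is stated.

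Leaving out 1 library gave 15 to 17 higher Edn1 sites and 0 lower, a median of 0.74 to 0.85, 7691 to 10081 sites higher and 6031 to 7912 lower, and 8 to 11 pathway sites higher and 12 to 16 lower. The site 66.4 kb past the start then ran from -0.0382 to 0.0192, above 0 without LPS replicate 1 or vehicle replicate 2, and that 29.8 kb past it from -0.0531 to 0.209, below 0 without vehicle replicate 3. Quantile normalisation and a pseudocount of 0.5 gave 17 higher Edn1 sites, and leaving out sites with a mean under 20 gave 16 of 23. The edgeR and DESeq2 alternatives were not run, because the deposited values are normalised and it was not established that a step is a single read. Low vehicle values rest on little signal: the lowest stands for 3 steps.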
